A study of Mus musculus with 12 samples.

Results

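The 35 genes described here mark astrocytes, either in their homeostatic state (23 genes) or when they become reactive (9 genes), together with 3 genes of neural progenitors and of signalling by bone morphogenetic proteins (BMPs). Members were found by gene symbol in the platform annotation, with 1 probe set per gene, the one with the highest mean over 12 arrays, and all 35 were measured, of 19938 genes with a probe set of their own. The array has 35556 probe sets, of which the 23410 with a gene were tested. Dio2 entered the set because its level had risen in Srf mutants in an earlier look at these data. Its values are therefore given as a description with no test, and counts of calls are over the other 34 genes.

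Hippocampal RNA came from adult mice of 7-10 weeks, 1 array per mouse and 3 mice per group. SRF is a transcription factor that drives genes in response to neuronal activity. All animals carried CaMKCreERT2, a tamoxifen-inducible recombinase driven by the Camk2a promoter, and had received tamoxifen, so Srf was removed in forebrain excitatory neurons and not by a promoter of astrocytes. Animals called controls or WT in the labels were heterozygous for Srf (Srf +/-; CaMKCreERT2). The groups were heterozygous mice injected with Ringer solution, heterozygous mice in which pilocarpine (335 or 350 mg/kg), a muscarinic agonist, caused 40 min of status epilepticus (SE), Srf mutants injected with Ringer solution, and Srf mutants given pilocarpine that had seizures without SE. Mutants with SE were not analysed here, so that genotype and SE cannot be told apart where responses of the genotypes are set side by side. The interval from injection to harvest in the mutants without SE is not given in the sources used here.

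Astrocytes take up glutamate and potassium around synapses, convert glutamate to glutamine, and are coupled to each other by connexins. After injury or seizures they can become reactive, a state known for more intermediate filament protein and for secreted and surface proteins that resting astrocytes hold at low levels. Astrocytes are also the main cells of the brain that convert the prohormone thyroxine to active thyroid hormone, through the deiodinase Dio2.

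Values are robust multiarray average (RMA) levels on a log2 scale, so that a difference of 1 is a doubling. Medians of the 12 arrays lay between 6.78 and 6.86, and any pair of arrays correlated at 0.993 to 0.998 across probe sets. Srf itself ranged over 9.53 to 9.60 in heterozygous controls, 10.16 to 10.27 in heterozygous mice with SE, 8.80 to 8.96 in mutant controls and 8.83 to 8.90 in mutants given pilocarpine, so every mutant lay below every heterozygous mouse. As a rough guide to signal, 30 of the 34 tested genes had a mean level above the median of all probe sets tested, including 22 of 22 homeostatic and 5 of 9 reactive genes. The animals' sexes were mixed in every group but the heterozygous mice with SE: the female-specific transcript Xist was above a level of 9 on 1 of 3 heterozygous control arrays, 0 of 3 with SE, 2 of 3 mutant control arrays and 1 of 3 mutant arrays with pilocarpine.

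Dio2 had the largest change of the 35 genes in both genotypes. Heterozygous controls had levels of 9.06, 9.28 and 9.11, and heterozygous mice with SE had 10.16, 10.25 and 10.17. Mutant controls had 9.37, 9.47 and 9.65, and mutants given pilocarpine had 10.81, 10.80 and 10.57. The groups did not overlap, and all 3 mutants given pilocarpine, which had no SE, lay above all 3 heterozygous mice with SE. Means were 9.15 ± 0.12, 10.19 ± 0.05, 9.50 ± 0.14 and 10.73 ± 0.14 (SD, n = 3 each) in that order, a log2 difference of 1.04 (2.06-fold) with SE and of 1.23 (2.34-fold) in the mutants. Mutant controls were above heterozygous controls by 0.35.

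The stretch of DNA before the Dio2 start site is shown because Dio2 had the largest change, with that of Nes, a gene of intermediate filaments with the next largest rise in SE, for comparison. Both are the 250 bases before the start annotated by RefSeq in GRCm38.p6, at chr12:90739039-90739288 on the minus strand for Dio2 and chr3:87970843-87971092 on the plus strand for Nes, written 5′ to 3′ in the direction of transcription, with capitals where a searched motif was found.
Dio2: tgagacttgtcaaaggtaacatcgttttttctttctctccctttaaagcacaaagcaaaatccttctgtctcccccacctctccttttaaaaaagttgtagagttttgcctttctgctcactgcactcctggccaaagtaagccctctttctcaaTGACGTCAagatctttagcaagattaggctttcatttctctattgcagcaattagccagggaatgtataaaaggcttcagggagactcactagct
Nes: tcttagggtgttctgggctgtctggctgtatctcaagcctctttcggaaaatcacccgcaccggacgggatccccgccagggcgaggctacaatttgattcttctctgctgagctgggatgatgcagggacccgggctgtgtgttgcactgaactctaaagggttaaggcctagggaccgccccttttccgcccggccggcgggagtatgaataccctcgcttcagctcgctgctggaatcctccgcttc
The capitals in Dio2 mark TGACGTCA, the cAMP response element bound by CREB-type factors, which lay 95 to 88 bases before the start. Dio2 is known as a gene induced by cAMP in brown fat. Of all 32851 RefSeq promoters of this length, 1.55% held these letters on either strand, and of the 30 members with a promoter in the table Dio2 alone did. Here and below, shares are per promoter, while a member was counted if any of its promoters held the motif. The AP-1 motif TGANTCA was in 6.75% of promoters and in 1 member (Gja1), the EGR motif GCGTGGG in 4.3% and in 3 members (Slc4a4, Aldoc and Fgfr3), and the CArG box, the motif of SRF, in 1.47% and in 0 of the 30 members. A match describes the sequence and is not evidence that a factor binds there. Promoters of Id1, Sox9, Atp1b2, Clu and Aqp4 were not analysed here.

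**Figure D1:**
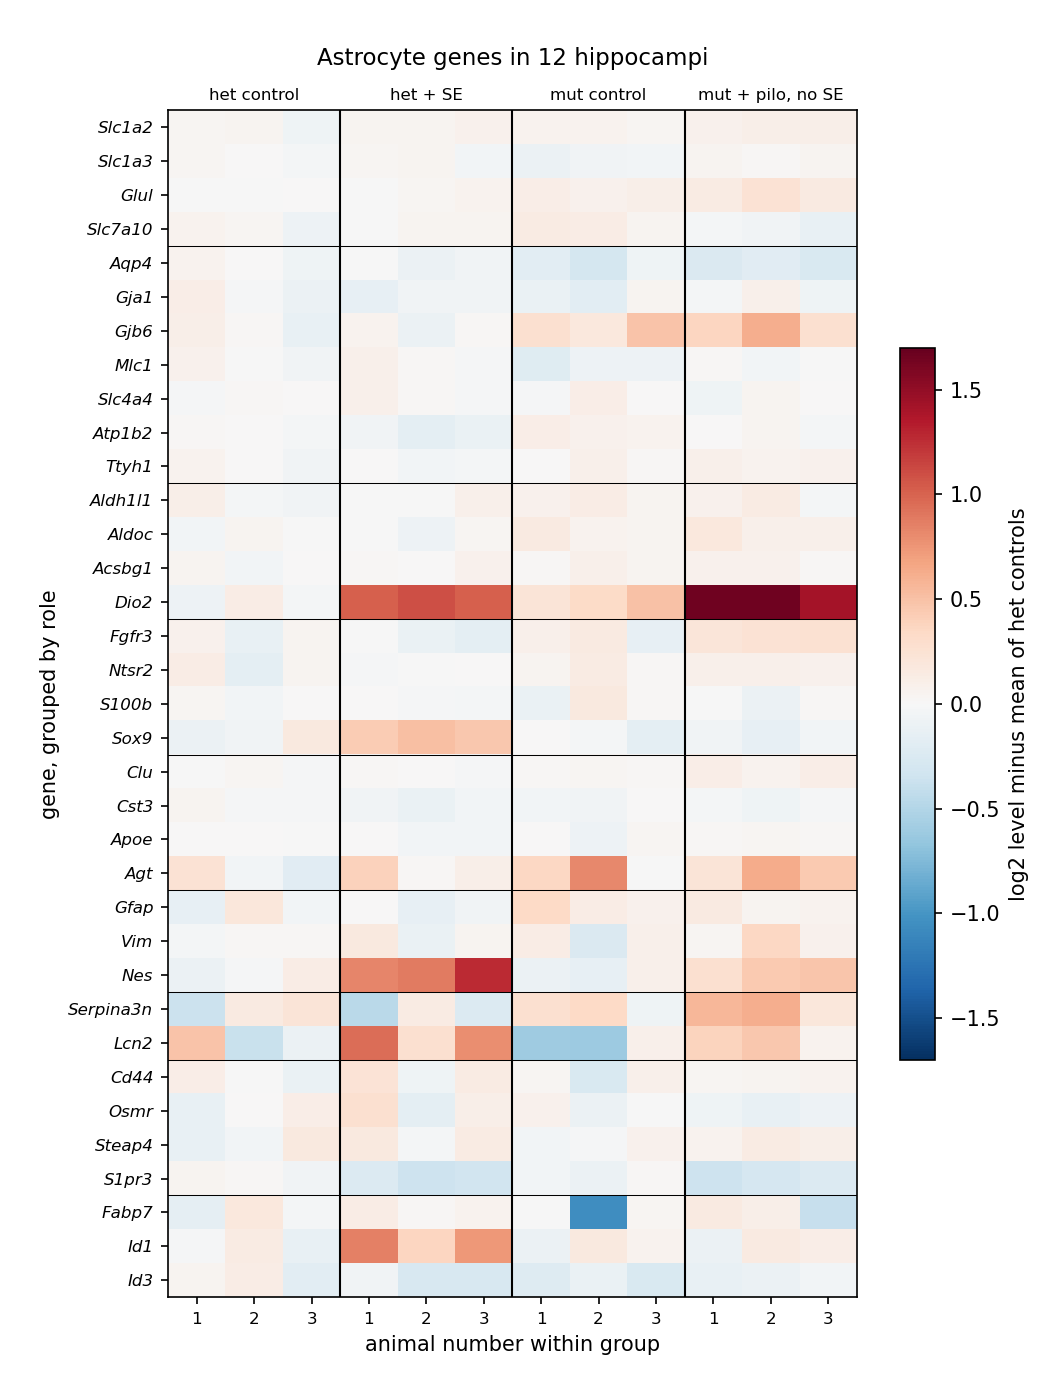
Level of each of the 35 genes (rows, grouped by role) in each of 12 hippocampi (columns, by group and animal number), coloured by the log2 level minus the mean of the 3 heterozygous controls. Dio2 is raised in all animals given pilocarpine, Sox9 and Id1 in the heterozygous mice with SE, and most rows of homeostatic genes are close to 0.

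After SE, 4 astrocyte genes passed the test, and 1 of them was homeostatic. Of the 34 tested members, 3 rose (8.82%; Nes, Sox9 and Id1) and 1 fell (2.94%; S1pr3), where 5.08% of all probe sets tested rose and 6.93% fell, so that calls in both directions together were about as frequent among the members as on the array. The median log2 fold change was 0.02 over the members and -0.03 over all probe sets. Only Sox9 was called among the 22 homeostatic genes, and 21 of the 22 differed from controls by less than 0.2. In bulk tissue, fewer astrocytes and less RNA per astrocyte cannot be told apart.

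Sox9, the transcription factor of astrocyte and glial progenitor identity, rose after SE in heterozygous mice, and its response in the mutants was smaller. Its levels were 9.54, 9.58 and 9.81 in heterozygous controls and 10.07, 10.15 and 10.10 with SE, with no overlap. The mutants had 9.65, 9.61 and 9.47 as controls and 9.58, 9.50 and 9.60 after pilocarpine, which overlapped. The log2 fold change was 0.46 with SE (standard error 0.0689, limma adjusted p = 0.000674) and -0.02 in the mutants (95% interval -0.17 to 0.13). The response in mutants minus that in heterozygous mice was -0.48 (standard error 0.0974, adjusted p = 0.0151), and Sox9 was the 1 member called for this difference (2.94% of 34), where 1.47% of all probe sets were called higher and 2.12% lower.

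Genes of glutamate and amino acid handling differed by at most 0.05 with SE. The glutamate transporter Slc1a2 (GLT-1) was at 13.24, 13.25 and 13.14 in heterozygous controls and 13.26, 13.26 and 13.28 with SE, a difference of 0.05 (95% interval -0.03 to 0.14, adjusted p = 0.476). The other glutamate transporter, Slc1a3 (GLAST), and glutamine synthetase (Glul) differed by 0.01 and 0.03. A further Glul probe set differed by -0.04. In mutants given pilocarpine, Slc7a10, a transporter of D-serine and other small amino acids, was lower on all 3 arrays than on all 3 mutant control arrays by 0.18 but did not pass the test (adjusted p = 0.0913). Of the alternatives, it was called only without dim probe sets (adjusted p = 0.0486) and with Xist as a covariate (-0.21, adjusted p = 0.04).

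None of the 7 genes of water, ion and junction proteins was called in either genotype. Of the 3 with the highest levels, the sodium pump subunit Atp1b2 differed by -0.11 with SE (adjusted p = 0.129), the membrane protein Ttyh1 by -0.03 and the bicarbonate transporter Slc4a4 by 0.03. In the mutants Atp1b2 differed by -0.07 (adjusted p = 0.489), and its arrays did not overlap with controls in either genotype. The water channel Aqp4, named after its value was seen, differed by -0.06 with SE and -0.05 in the mutants. Metabolic enzymes were as close to controls: Aldoc, Acsbg1 and Aldh1l1 differed by -0.02, 0.03 and 0.02 with SE and by 0.03, 0.00 and -0.02 in the mutants.

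Receptors and secreted proteins also gave no call other than Sox9. The fibroblast growth factor receptor Fgfr3 differed by -0.10 with SE and by 0.21 in the mutants (adjusted p = 0.214), and the neurotensin receptor Ntsr2 and the calcium-binding protein S100b by no more than 0.05 in either genotype. The lipid carrier Apoe, the protease inhibitor Cst3 and the chaperone Clu differed by -0.03, -0.07 and 0.00 with SE. Angiotensinogen (Agt) had the widest spread among homeostatic genes, with an SD of up to 0.412 within a group, and its difference of 0.17 with SE is within that spread.

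**Figure D2:**
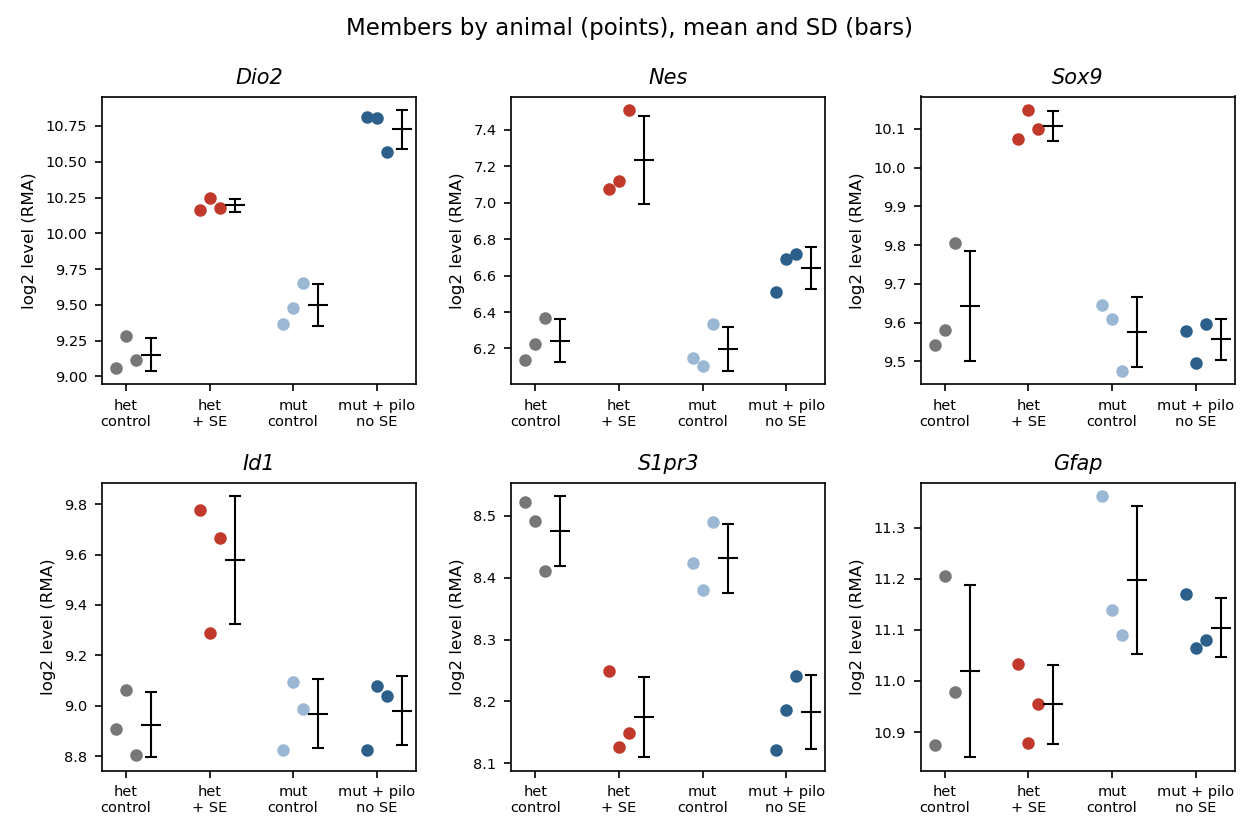
RMA log2 levels of single genes by group, with 1 point per animal and bars for the mean and SD (n = 3), each panel with its own axis. Dio2 is raised in both genotypes, Nes, Sox9 and Id1 are highest in heterozygous mice with SE, S1pr3 is lower after pilocarpine in both genotypes, and Gfap overlaps between controls and injected mice of each genotype.

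Reactive genes did not move together. The heterozygous mice with SE were harvested after 40 min of SE, and later changes of reactive genes were not tested. Nes rose and S1pr3 fell after SE, the other 7 reactive genes did not pass the test, and the median over the 9 was 0.07. Gfap, the filament protein whose rise is the classical sign of reactive astrocytes, was at 10.88, 11.21 and 10.98 in heterozygous controls and 11.03, 10.88 and 10.95 with SE. Its levels were 11.36, 11.14 and 11.09 in mutant controls and 11.17, 11.06 and 11.08 after pilocarpine. Both pairs overlapped, while the heterozygous mice with SE lay below all 6 mutants. The differences from controls were -0.06 (95% interval -0.25 to 0.12) and -0.09 (-0.28 to 0.10). Vimentin (Vim), the filament partner of Gfap, differed by 0.03 and 0.16.

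Nestin (Nes), an intermediate filament of neural progenitors, reactive astrocytes and endothelial cells, had the largest change of the tested members. Levels were 6.14, 6.22 and 6.37 in heterozygous controls and 7.07, 7.12 and 7.51 with SE, a log2 fold change of 0.99 (1.99-fold, standard error 0.110, adjusted p = 6.46e-05). In mutants they were 6.15, 6.11 and 6.33 in controls and 6.51, 6.69 and 6.72 after pilocarpine, without overlap but with a smaller difference of 0.45 (95% interval 0.21 to 0.68) that did not pass the test (adjusted p = 0.0635). The mutant and heterozygous responses differed by -0.55 (adjusted p = 0.0805). With the animal number as a block both values were called (adjusted p = 0.0102 and 0.011). The mutant response was also called without the heterozygous SE array of animal 3 (adjusted p = 0.0208) and with an intensity trend and robust prior (adjusted p = 0.0494). The difference of responses was also called with array weights (adjusted p = 0.0401). In the remaining alternatives neither was called.

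S1pr3, a receptor for sphingosine 1-phosphate, was the one member called lower in both genotypes. Its levels were 8.52, 8.49 and 8.41 in heterozygous controls and 8.25, 8.13 and 8.15 with SE, then 8.42, 8.38 and 8.49 in mutant controls and 8.12, 8.19 and 8.24 after pilocarpine. Neither pair overlapped. The log2 fold change was -0.30 with SE (standard error 0.0521, adjusted p = 0.0021) and -0.25 in the mutants (adjusted p = 0.0346), and the difference between responses was 0.05 (95% interval -0.11 to 0.21). The call in the mutants was lost in 11 of 22 alternatives, including those without any one of the 3 mutant control arrays, without mutant pilocarpine array 1 or 2, without heterozygous control array 2 and without heterozygous SE array 3, with adjusted p up to 0.134.

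Secreted and other surface proteins of reactive astrocytes varied between animals. The median SD within a group was 0.130 over the reactive and 0.0477 over the homeostatic genes. Lipocalin 2 (Lcn2), an iron-siderophore carrier, was at 7.14, 6.29 and 6.56 in heterozygous controls and 7.61, 6.94 and 7.46 with SE, and at 6.06, 6.04 and 6.75 in mutant controls and 7.04, 7.12 and 6.72 after pilocarpine. Its differences of 0.67 (95% interval 0.14 to 1.20, adjusted p = 0.103) and 0.68 (adjusted p = 0.197) did not pass the test, and the groups overlapped in each genotype. Of the alternatives, the first was called only with array weights (0.73, adjusted p = 0.0341) and when 1 of 2 arrays was left out. These were heterozygous control array 1 (0.91, adjusted p = 0.0312) and heterozygous SE array 2 (0.87, adjusted p = 0.048). They are the highest control and the lowest array with SE, so either omission had to enlarge the difference. The protease inhibitor Serpina3n differed by -0.18 and 0.28, and the hyaluronan receptor Cd44, the oncostatin M receptor Osmr and the metalloreductase Steap4 by 0.10, 0.07 and 0.09 with SE.

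Of the progenitor and BMP-responsive genes, Id1, an inhibitor of DNA binding and a target of BMP signalling, rose in SE. It was at 8.91, 9.06 and 8.81 in heterozygous controls and 9.78, 9.29 and 9.67 with SE (log2 fold change 0.65, standard error 0.119, adjusted p = 0.0029). Mutants had 8.82, 9.09 and 8.99 as controls and 8.82, 9.08 and 9.04 after pilocarpine, a difference of 0.01 (95% interval -0.25 to 0.27). The responses differed by -0.64 (adjusted p = 0.0605). Of the alternatives, this was called only without dim probe sets (adjusted p = 0.0417), with array weights (adjusted p = 0.0231) and without heterozygous SE array 2 (-0.78, adjusted p = 0.0076). That array had the lowest Id1 with SE, so its omission had to enlarge the difference. Its relative Id3 differed by -0.20 with SE and did not pass the test (adjusted p = 0.139). Of the alternatives, Id3 was called only without heterozygous control array 3, the lowest of these controls (adjusted p = 0.0319). Fabp7, a fatty acid binding protein of radial glia, was at 10.75 in 1 mutant control and at 11.42 or more on the other 11 arrays.

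Nes and Id1 are also expressed by endothelial cells, so markers of other cell types were read on the same arrays. Of 6 endothelial markers, 5 had lower means with SE and Tek was called (-0.45, adjusted p = 0.0227; 0.0762 without heterozygous control array 2 and 0.0758 without array 1). The mean of that list, relative to heterozygous controls, was -0.07 to 0.10 in heterozygous controls and -0.52 to -0.01 with SE, lowest in animal 2. Among mice with SE that animal had the lowest Id1 but not the lowest Nes (7.12, against 7.07 in animal 1). Its mean of the reactive genes was also the lowest with SE, at 0.05 against 0.21 in animals 1 and 3. A low value in that animal was therefore not particular to Id1. The pericyte marker Pdgfrb fell (-0.48, adjusted p = 0.000559), as did the microglial markers Cx3cr1 (-0.19) and P2ry12 (-0.23), and the precursor markers Cspg4 and Gpr17 moved by 0.31 and -0.36. Of these, all but Pdgfrb were lost without 1 or another array, with adjusted p up to 0.141. None of the neuronal, oligodendrocyte or choroid plexus markers was called, and no marker was called in the mutants given pilocarpine or between genotypes. All 5 measured oligodendrocyte markers had lower means in the mutants given pilocarpine than in mutant controls (median -0.28, smallest adjusted p = 0.186, for Cnp), and 4 of them had an unadjusted p of 0.0141 to 0.0275. The mean of that list, relative to heterozygous controls, was 0.01 to 0.06 in mutant controls and -0.49, -0.13 and -0.03 in mutants given pilocarpine, lowest in animal 1. With SE all 5 also had lower means (-0.12 to -0.09). Other lists moved in the mutants too: the precursor mean was 0.05 to 0.12 in mutant controls and 0.24 to 0.27 after pilocarpine. Tek differed by -0.42 there (limma adjusted p = 0.0886). The part of these cell types in the members' changes was not tested.

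**Figure D3:**
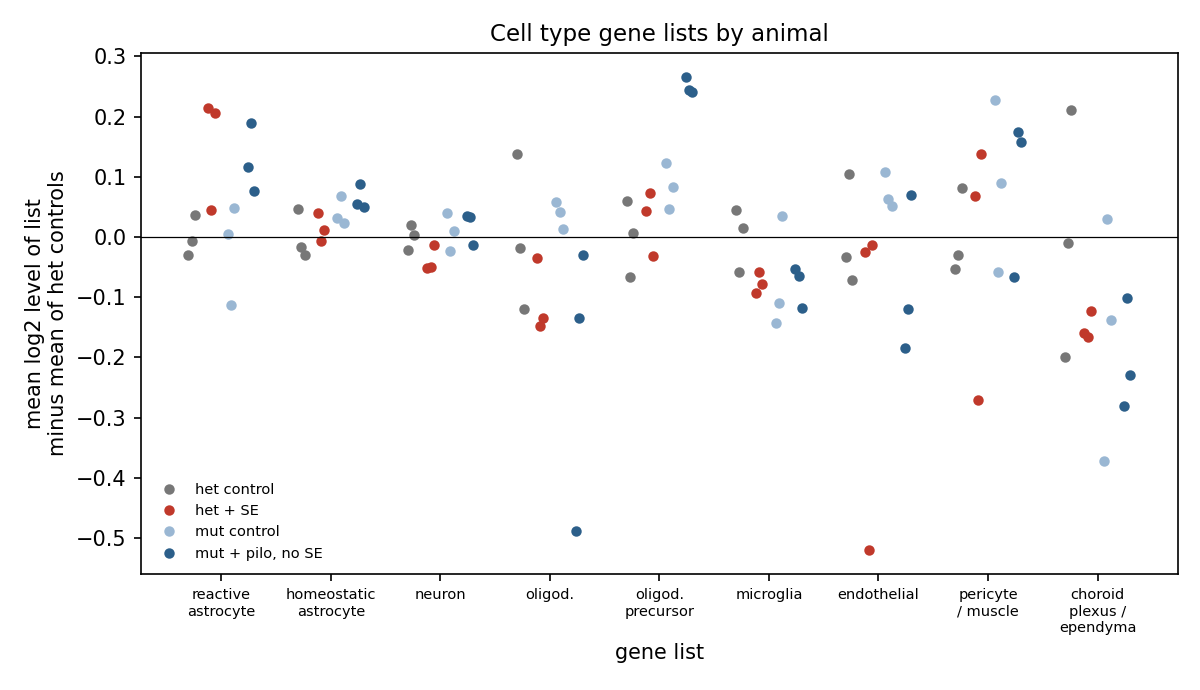
Mean log2 level of each gene list minus the mean of the heterozygous controls, with 1 point per animal, for the homeostatic genes without Dio2, the reactive genes and 7 lists of markers of other cell types. The homeostatic mean stays within -0.03 to 0.09 on all arrays. The reactive mean reaches 0.21 with SE and 0.19 in mutants given pilocarpine, and the endothelial mean reaches -0.52 in 1 heterozygous mouse with SE.

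In mutants given pilocarpine 0 of 34 members rose and 1 (2.94%, S1pr3) fell, where 0.871% of all probe sets rose and 0.965% fell. At an unadjusted p under 0.05, 5 members were higher (Slc1a3, Mlc1, Fgfr3, Nes and Lcn2) and 2 lower (Slc7a10 and S1pr3). The share of all probe sets at that unadjusted limit was not computed, so no excess among the members can be read from these counts. Groups did not overlap for 7 members that were higher and 3 that were lower, where 7.04% and 11.4% of all probe sets did so. With SE these counts were 4 and 3, where 10.6% and 19.8% did so. The 95% interval of the change stayed within 0.5 of 0 for 27 of the 34 members with SE and for 30 in the mutants. The responses of both genotypes and their difference share arrays and are not independent.

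**Figure D4:**
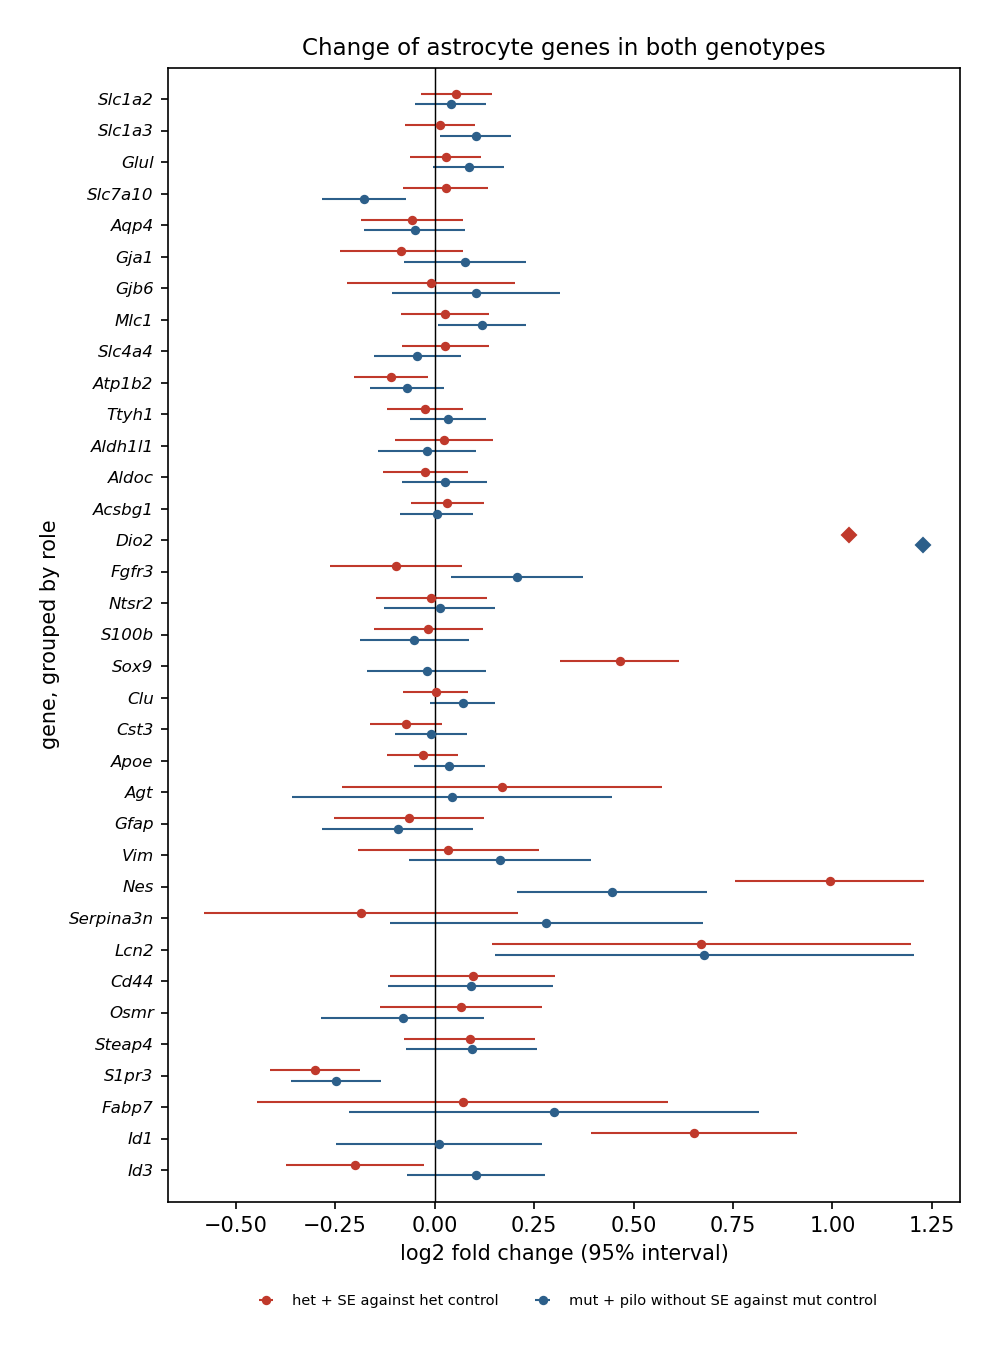
Log2 fold change of each gene (rows, grouped by role) in heterozygous mice with SE and in mutants given pilocarpine without SE, each against its own controls, with 95% intervals from limma for all genes but Dio2, which is shown without one. Intervals of most homeostatic genes are narrow and include 0. Of the genes called for SE, Nes, Sox9 and Id1 lie to the right and S1pr3 to the left. Intervals for SE also exclude 0 for Lcn2 on the right and for Id3 and Atp1b2 on the left, which were not called.

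Between genotypes at rest, 0 of 34 members were called in either direction, where 0.0384% of all probe sets were higher and 0.0812% lower in mutant controls. At an unadjusted p under 0.05, 2 members were higher (Glul and Gjb6) and 3 lower (Aqp4, Mlc1 and Id3). Here too the share of all probe sets at that limit was not computed, and no excess can be read from the counts. Groups did not overlap for 4 members that were higher and 3 that were lower, where 6.1% and 7.46% of all probe sets did so. The connexin Gjb6 (connexin 30) had the smallest adjusted p (0.415), with 9.48, 9.39 and 9.25 in heterozygous and 9.65, 9.56 and 9.86 in mutant controls, a difference of 0.31. Gjb6, Glul and the glycolytic enzyme Aldoc were higher in all 6 mutants than in all 6 heterozygous mice, irrespective of treatment, where 0.671% of all probe sets were, and 0 members were lower, where 0.607% were. For Glul the sizes were small, 13.38 to 13.45 in heterozygous mice against 13.47 to 13.64 in mutants. For Aldoc the genotypes barely separated, with 13.3284 in heterozygous control 2 and 13.3288 in mutant control 3 (limma adjusted p = 0.652 between controls). Gfap was higher in mutant controls by 0.18 (95% interval -0.01 to 0.37, adjusted p = 0.594).

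Other genes of the same kinds, from lists drawn up by function, were measured beside the members. The lists were chosen with earlier results of these data known, so a count above the share of all probe sets is no test of a list. Of 37 other homeostatic astrocyte genes, 7 rose and 0 fell with SE, where 5.08% of all probe sets rose and 6.93% fell. Among the 7 were the peptide transporter Slc15a2 (0.45, adjusted p = 0.00624), the secreted protease Htra1 (0.29, adjusted p = 0.00611), the phagocytic receptor Megf10 (0.27, adjusted p = 0.0229, up to 0.0927 without a heterozygous array) and the connexin Gjb2 (0.76, adjusted p = 0.0498, up to 0.185 without 1 array). The remaining calls with SE were each lost in several alternatives, with adjusted p up to 0.176. In the mutants given pilocarpine 0.871% of all probe sets rose and 0.965% fell. Htra1 rose in the mutants too (0.44, adjusted p = 0.00298), where Htra1 was at 11.42, 11.52 and 11.37 in controls and 11.84, 11.97 and 11.81 after pilocarpine. The urea transporter Slc14a1 fell in the mutants (-0.55, adjusted p = 0.0476), a call lost in 14 alternatives.

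Among 26 other reactive genes measured of 31, 5 rose and 0 fell with SE, where 5.08% of all probe sets rose and 6.93% fell. They were the matrix protein gene Ccn1 (4.59, adjusted p = 1.01e-10), Ptgs2, which encodes cyclooxygenase-2 (2.56, adjusted p = 8.95e-10), the membrane protein gene Emp1 (1.44, adjusted p = 3.13e-05), the lipopolysaccharide co-receptor Cd14 (0.72, adjusted p = 0.000132) and tenascin C (Tnc; 0.51, adjusted p = 0.00229). Ccn1 and Ptgs2 are also immediate early genes of neurons and other cells. The paper names Ccn1, as Cyr61, among the genes most induced by pilocarpine in heterozygous mice. Its place in the list is therefore not independent of these data. In the mutants Ccn1 (2.06), Ptgs2 (0.62) and Emp1 (0.67) rose, the last lost in 10 alternatives with adjusted p up to 0.128, and 0 of the 7 measured genes of the inflammation type were called in either genotype.

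The receptor Osmr binds oncostatin M and signals through gp130 and STAT3. Of 11 genes of oncostatin M, gp130 and STAT signalling, 4 rose with SE, where 5.08% of all probe sets rose, and 0 were called in the mutants. The 4 were the cytokine Lif (0.56, adjusted p = 0.000889), Stat3 (0.34, adjusted p = 0.000152), the cytokine Osm (0.33, adjusted p = 0.0121) and the receptor Il6ra (0.31, adjusted p = 0.0104). The calls of Osm and Il6ra were lost without 1 heterozygous array (adjusted p up to 0.058 and 0.0501). Lif and Stat3 differed by 0.34 and 0.17 in the mutants (adjusted p = 0.0682 and 0.0628).

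Of 12 genes of the thyroid hormone pathway, to which Dio2 belongs, 1 rose with SE, the thyroid hormone-responsive factor Klf9 (0.29, adjusted p = 0.00127), and 0 were called in the mutants. Of all probe sets, 5.08% rose with SE. Dio3, the deiodinase that inactivates thyroid hormone, differed by -0.20 with SE and by 0.65 in the mutants (adjusted p = 0.188), with levels of 7.30, 6.63 and 7.07 in mutant controls and 7.80, 7.78 and 7.37 after pilocarpine.

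Of 18 genes of BMP and Notch signalling and the Id family, 4 rose and 2 fell with SE, where 5.08% and 6.93% of all probe sets did so. The inhibitory Smad7 rose by 0.66 (adjusted p = 4.11e-05), the BMP effector Smad1 by 0.48 (adjusted p = 0.000122) and the Notch target Hes1 by 0.29 (adjusted p = 0.0116; up to 0.0584 without a heterozygous array), while the Notch target Hes5 fell by 0.52 (adjusted p = 0.00023). In the mutants Hes1 (0.42, adjusted p = 0.00735) and Smad7 (0.35, adjusted p = 0.0259) rose, the latter lost in 8 alternatives with adjusted p up to 0.101. No gene of these lists was called between genotypes at rest.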

How the data were processed

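Total RNA of 12 hippocampi was hybridised to Affymetrix Mouse Gene 1.0 ST arrays, 1 per mouse. The authors processed the arrays with Affymetrix Expression Console and deposited RMA values on a log2 scale, which are background-corrected, quantile-normalised and summarised over probes. No values of single probes were used, and quantile normalisation would remove a shift shared by all genes. RMA compresses changes of dim probe sets. The number of arrays limits the precision, and no depth applies.

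Of 35556 probe sets, the platform annotation gives 1 gene for 21789, several for 1621 and none for 12146. Members were taken from probe sets with 1 gene, the one with the highest mean over the 12 arrays. Of these symbols, 21698 were found by Entrez identifier in the gene table and 0 changed. Only Glul has a further probe set. Of the other lists 9 genes, and of the markers 2, were not analysed here.

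limma 3.58.1 in R 4.3.3 fitted a mean for each of 4 groups to the 23410 probe sets with a gene (lmFit and eBayes, 8 residual degrees of freedom), without a block. Contrasts were SE against control in heterozygous mice, pilocarpine against control in mutants, mutant against heterozygous controls, and the difference of the first and second. Benjamini-Hochberg adjustment ran over all 23410 p-values, with calls under 0.05. The fit was tested on simulated data. Python 3.11.15 with pandas 2.3.3 and matplotlib 3.10.9 made summaries and plots.

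The members and lists were chosen with earlier results of these data known. By the rule for naming, members called in any contrast and Dio2 are given per array, other members by ranges and up to 3 examples per role with the highest levels, and up to 4 called genes of each other list. Aqp4, Slc7a10, Agt, Gjb6, Lcn2 and Id3, the genes listed at an unadjusted p, Dio3 and Cnp were named after their values were seen. Alternatives were the prior variance, dim probe sets, normalisation, array weights, the arrays in the fit, all probe sets, Xist as a covariate, the limits of the study's methods, the animal number as a block and the omission of single arrays. Animal numbers recur in each group without a stated link.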

Additional observations from a re-analysis of the deposited data

Results flagged for a closer look

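The members, the other lists and the marker lists were searched for genes called by the test of the difference itself. For 7 of these genes, the response of the mutants to pilocarpine without SE differed from the response of heterozygous mice with SE. Since the mutants did not have SE, genotype and SE cannot be told apart in any of them. Among the members this was Sox9, with -0.48 (standard error 0.0974, limma adjusted p = 0.0151). Reactive genes outside the members that differed were Ccn1 (-2.53, adjusted p = 2.73e-06), Ptgs2 (-1.94, adjusted p = 1.9e-06), Tnc (-0.55, adjusted p = 0.0352) and Cd14 (-0.50, adjusted p = 0.0429). Tnc and Cd14 lost this call in 10 and 12 alternatives, with adjusted p up to 0.0998 and 0.111. In BMP and Notch signalling Smad1 differed by -0.42 (adjusted p = 0.0131) and Hes5 by 0.47 (adjusted p = 0.0148), the latter having fallen with SE and being at 8.64, 8.66 and 8.71 in mutant controls and 8.68, 8.49 and 8.70 after pilocarpine. Groups of 3 arrays are too small for a test of single outlying arrays.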

How the results depend on the processing

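Over 136 differences of single members and 2942 alternative values, 2795 kept their direction and their side of the threshold, 11 lost a call (all of S1pr3 in the mutants), 14 gained one, 122 changed sign without a call and 0 reversed a call. Sox9 kept its calls for SE and for the difference of responses in all alternatives at an adjusted p under 0.05, up to 0.00543 and 0.0449. Members called higher in the mutants given pilocarpine numbered 1 in place of 0 with an intensity trend and robust prior and 1 with the animal number as a block. Members called lower there numbered 2 in place of 1 without dim probe sets (30 members left) and 0 with only the compared groups, with all probe sets and with the block. Members with a lower response in mutants numbered 2 in place of 1 without dim probe sets, 3 with array weights and 2 with the block. At the limits of the study's methods, a change of at least 2-fold with an adjusted p below 0.001, 0 members were called higher or lower with SE, 0 lower in the mutants and 0 for the difference of responses. Leaving out each array gave 3 to 4 members higher and 1 to 2 lower with SE, 0 to 1 higher and 0 to 1 lower in the mutants, 0 to 0 in either direction between genotypes, and 0 to 0 with a higher and 1 to 2 with a lower response in mutants.

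Arrays of the same animal number did not in general deviate together (18 pairs of arrays, r = -0.312 to 0.323 with a median of 0.0177, 5 over 0.1). With 3 arrays per group these values cannot settle whether the numbers pair the arrays. The replicate block called 1 member higher and 0 lower in the mutants and 2 with a lower response there, and left the other counts of members as they were. Signal limits the dim members Steap4, Nes, Lcn2 and Cd44, the 4 with a mean level below the median of all probe sets.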
